A study of Mus musculus with 16 samples.

Results

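The 9 genes described here are Mbp, Mobp, Mag, Mog, Cldn11, Cnp, Ugt8a, Fa2h and Enpp6. Enpp6 encodes a phosphodiesterase that marks newly forming oligodendrocytes, and the others encode proteins of the myelin sheath or enzymes that make its lipids. The 9 genes were chosen by name, with earlier results of these data known, out of 27179 genes counted by RNA sequencing. All 9 were among the 15177 genes abundant enough to be tested. The RNA was from mouse neural stem and progenitor cells. The cells came from dissected E14.5 (embryonic) forebrain, namely cortex and ganglionic eminence, and were cultured as neurospheres, floating clusters of progenitors. Null cells carried the genotype Kat7 lox/lox Nes-CreT/+ and intact cells Kat7+/+ Nes-CreT/+, so the Cre transgene was present in all libraries and the intact cells had no floxed allele. Kat7 encodes the histone lysine acetyltransferase KAT7, also called HBO1. Differentiating cells had been cultured for 3 days after passage 3 on a laminin substrate with cortical neuron medium, and proliferating cells had been through 3 passages and 3 days of proliferation medium. This gave 4 groups of 4 libraries: null differentiating, intact differentiating, null proliferating and intact proliferating. Each came from foetal isolates, with 4 foetuses per genotype in each condition. The Cre transgene is driven by Nestin sequences, which are active in neural progenitors.

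Myelin is the lipid-rich membrane that oligodendrocytes wrap around axons. As progenitors leave the cell cycle and commit, the transcription factor SOX10 induces a further factor, MYRF, and both bind the enhancers and promoters of myelin genes. Premyelinating oligodendrocytes switch on Cnp and Enpp6 early, then the lipid enzymes and Mbp, and Mog is among the last genes to appear. These stages are background knowledge and were not measured here. Neurosphere cultures contain progenitors that can take this path without any axons.

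Libraries held 16.8 to 47.9 M counts. Values are counts per M counts of the library after scaling by trimmed mean of M values (CPM), and a fold change is log2 from edgeR's quasi-likelihood fit over all 16 libraries with its standard error (SE) and a p adjusted over all genes tested (Benjamini-Hochberg), called under 0.05. Kat7 itself had 1 count in the null differentiating libraries against 12460 in the intact ones, and 8 counts in the null proliferating libraries against 11565 in the intact ones. Intact proliferating replicate 1 stood apart from its group in 8 of the 9 myelin genes, always as the highest library. Intact differentiating replicate 1 stood apart in neuronal genes and was the lowest of its group in 6 of the 9 myelin genes. Where leaving one of them out moved a called value by more than 1.5 times, the value without it is given. No exon of any of the 9 genes overlaps an exon of another gene in GENCODE M21.

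Promoter windows from RefSeq (GRCm38.p6, the assembly that mm10 names) were at hand for 7 of the 9 genes and are shown for the 4 whose values differ most in kind: Mobp, whose level in proliferating cells went its own way, Mag and Cnp, with the deepest and a shallow deficit in differentiating null cells, and Ugt8a, the steadiest of the deep deficits. Each line gives the bases just before the outermost annotated start, 5′ to 3′ on the strand of the gene. Capitals mark SOX-type cores (ACAAAG or ACAATG, either strand; CTTTGT is the reverse complement of the first) and MYRF-type cores (CTGGCAC or CTGGTAC, either strand). The windows are chr9:120149492-120149741 (plus strand) for Mobp, chr7:30914923-30915172 (minus strand) for Mag, chr11:100574689-100574908 (plus strand) for Cnp and chr3:125938683-125938902 (minus strand) for Ugt8a.
Mobp promoter: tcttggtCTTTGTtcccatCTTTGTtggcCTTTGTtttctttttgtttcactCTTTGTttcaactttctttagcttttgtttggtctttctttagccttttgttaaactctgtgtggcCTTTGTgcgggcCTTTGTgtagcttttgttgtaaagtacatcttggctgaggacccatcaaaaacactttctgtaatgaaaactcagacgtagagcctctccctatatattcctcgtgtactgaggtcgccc
Mag promoter: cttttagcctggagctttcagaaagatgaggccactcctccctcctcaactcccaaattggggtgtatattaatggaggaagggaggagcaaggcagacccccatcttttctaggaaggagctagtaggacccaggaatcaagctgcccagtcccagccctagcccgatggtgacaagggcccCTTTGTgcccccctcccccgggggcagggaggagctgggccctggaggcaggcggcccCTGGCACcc
Cnp promoter: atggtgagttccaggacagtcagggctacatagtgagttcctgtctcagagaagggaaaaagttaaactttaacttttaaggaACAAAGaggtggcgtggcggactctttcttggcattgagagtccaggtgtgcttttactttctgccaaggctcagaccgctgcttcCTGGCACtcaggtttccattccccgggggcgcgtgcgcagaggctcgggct
Ugt8a promoter: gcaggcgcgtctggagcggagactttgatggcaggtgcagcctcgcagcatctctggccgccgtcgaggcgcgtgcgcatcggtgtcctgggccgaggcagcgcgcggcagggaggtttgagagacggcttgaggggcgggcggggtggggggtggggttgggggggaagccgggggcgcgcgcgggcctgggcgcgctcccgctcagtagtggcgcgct

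The Mobp window holds 6 SOX-type cores, all as CTTTGT and none overlapping another. Among 32851 promoter windows of the same 300-base length, no other held as many (1 window, 0.00304%), and 28.6% held at least 1. Mag and Cnp each hold 1 SOX-type and 1 MYRF-type core, a MYRF-type core being present in 7.1% of all windows. The Mog window holds 1 MYRF-type core and the Enpp6 window 1 SOX-type core. That Enpp6 window (chr8:46986637-46986936) is at an annotated start inside the gene, which runs from 46939197 to 47096762, and not before its outermost start. Over the 7 genes, 4 had a SOX-type and 3 a MYRF-type core. Ugt8a and Cldn11 have neither, which says only that these letters are not in the windows, and are rich in G and C at 78.3% and 66.3% of bases. Ugt8a has 3 GC boxes (GGGCGG, either strand), a count that 10.7% of windows reach, with 2 of its 3 matches sharing bases. No match is evidence of a bound factor.

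**Figure D1:**
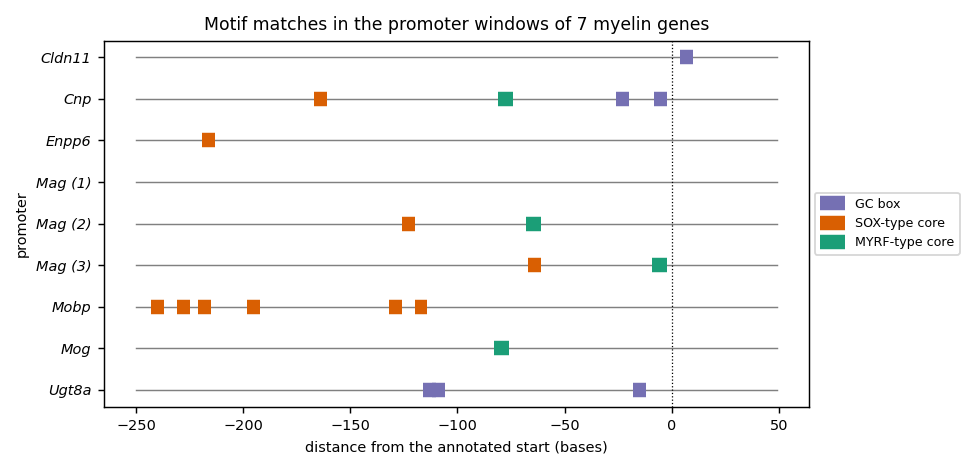
Matches to SOX-type cores, MYRF-type cores and GC boxes (coloured blocks) along the promoter windows of 7 myelin genes, by distance in bases from the annotated start (dotted line); Mag has 3 annotated starts, of which the third is the outermost. The Enpp6 window is at an annotated start inside the gene. Mobp has 6 SOX-type cores, at positions -243 to -115, and the other genes have at most 1.

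In differentiating cells the myelin genes were lower without KAT7. All 8 genes other than Mog were called lower in null than in intact differentiating cells, and in each of the 8 every null library lay below every intact library. Mog was called lower too but is not counted here, since it passed the filter on low counts only through the 4 intact differentiating libraries, so that a high level there was a condition of its being tested. Among all genes tested, 22% were called lower, 24.3% higher, and 20.4% were lower without overlap. The median fold change of the 8 genes was -4.41, against 0.04 over all genes tested. The deficit was uneven: null cells kept 26.5% of the intact level of Cnp and 26.6% of that of Fa2h, 8.82 to 11.3% of Cldn11 and Enpp6, and 2.51% or less of Ugt8a, Mbp, Mobp and Mag. The 8 calls held without intact differentiating replicate 1. These are bulk libraries, so fewer oligodendrocyte lineage cells and less RNA in each such cell cannot be told apart.

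Among the structural proteins, Mbp encodes myelin basic protein, which zips together the cytoplasmic faces of compact myelin (Entrez 17196; chromosome 18, 82475091 to 82585637 in GRCm38). It had 10.8, 14.3, 41.8 and 35.4 CPM in null differentiating replicates 1 to 4, against 938, 1051, 2036 and 1400 CPM in the intact libraries. Every null library was far below every intact one, at 0.799 to 3.08% of the intact mean, and replicates 3 and 4 were the higher pair among the null libraries. The fold change was -5.72 ± 1.03 (edgeR adjusted p = 3.5e-04). Mobp, a small basic protein of compact myelin (Entrez 17433; chromosome 9, 120149742 to 120181488), had 0.139, 0.0613, 0.0639 and 0.0869 CPM in null against 6.49, 2.94, 6.37 and 4.43 CPM in intact differentiating libraries. These are 12 counts in all against 618, or 1.64% of the intact level (95% counting interval 0.845 to 2.89%), and the fold change was -5.82 ± 0.75 (edgeR adjusted p = 1.9e-05). Intervals of this kind cover counting error only.

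Mag encodes myelin-associated glycoprotein, the adhesion molecule of the membrane next to the axon (Entrez 17136; chromosome 7, 30899175 to 30914922). It had 0.349, 0.429, 2.13 and 1.30 CPM in null and 76.1, 54.5, 136 and 63.4 CPM in intact differentiating libraries. This was the lowest null share among the genes with more than 1 count in null differentiating cells, at 1.28% of the intact mean (-6.22 ± 1.05, edgeR adjusted p = 2.1e-04). Mog encodes myelin oligodendrocyte glycoprotein, exposed on the outermost surface of the sheath (Entrez 17441; chromosome 17, 37010740 to 37023398). It was barely expressed even in intact differentiating cells, at 0.801, 0.670, 0.621 and 0.839 CPM. Null differentiating libraries held 1 count against 90 in intact ones, or 0.941% of the intact level (95% counting interval 0.0236 to 5.38%; -6.01 ± 0.73, edgeR adjusted p = 1.7e-05). Cldn11, the tight junction protein of myelin lamellae (Entrez 18417; chromosome 3, 31149920 to 31164326), had 12.3, 12.1, 16.3 and 13.0 CPM in null and 114, 136, 190 and 168 CPM in intact differentiating libraries. Its null level was a steady 7.95 to 10.7% of the intact mean, between the deep and the shallow deficits (-3.50 ± 0.55, edgeR adjusted p = 1.2e-04).

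Among the enzymes, Cnp encodes a nucleotide phosphodiesterase of the cytoplasmic channels of myelin that is also present in progenitors (Entrez 12799; chromosome 11, 100574909 to 100591875). It had 271, 312, 317 and 309 CPM in null and 598, 1170, 1312 and 1489 CPM in intact differentiating libraries. The null libraries hardly differed among themselves, and the nearest intact library was replicate 1 (-1.92 ± 0.33, edgeR adjusted p = 2.2e-04). Ugt8a adds galactose to ceramide to make galactosylceramide, the main glycolipid of myelin (Entrez 22239; chromosome 3, 125865272 to 125938682). It had 5.09, 5.82, 8.07 and 8.17 CPM in null and 163, 257, 335 and 329 CPM in intact differentiating libraries (-5.31 ± 0.40, edgeR adjusted p = 1.8e-07). Its SE was the smallest of the 5 genes with a fold change below -5.

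Fa2h puts the 2-hydroxyl group on the fatty acids of those galactolipids (Entrez 338521; chromosome 8, 111345138 to 111393821). It had 10.6, 9.49, 13.9 and 13.9 CPM in null and 22.5, 47.7, 52.4 and 56.8 CPM in intact differentiating libraries. Ugt8a and Fa2h act in the same pathway, yet null cells kept 26.6% of the intact level of Fa2h and 2.51% of that of Ugt8a. The fold change of Fa2h was -1.91 ± 0.58 (edgeR adjusted p = 0.014, DESeq2 adjusted p = 0.0504). Enpp6 encodes a choline-specific phosphodiesterase that marks newly forming oligodendrocytes (Entrez 320981; chromosome 8, 46939197 to 47096762). It had 15.8, 17.7, 47.1 and 39.4 CPM in null and 129, 255, 310 and 364 CPM in intact differentiating libraries (-3.14 ± 0.82, edgeR adjusted p = 0.0058). Its null libraries split as those of Mbp and Mag did, with replicates 3 and 4 above replicates 1 and 2.

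**Figure D2:**
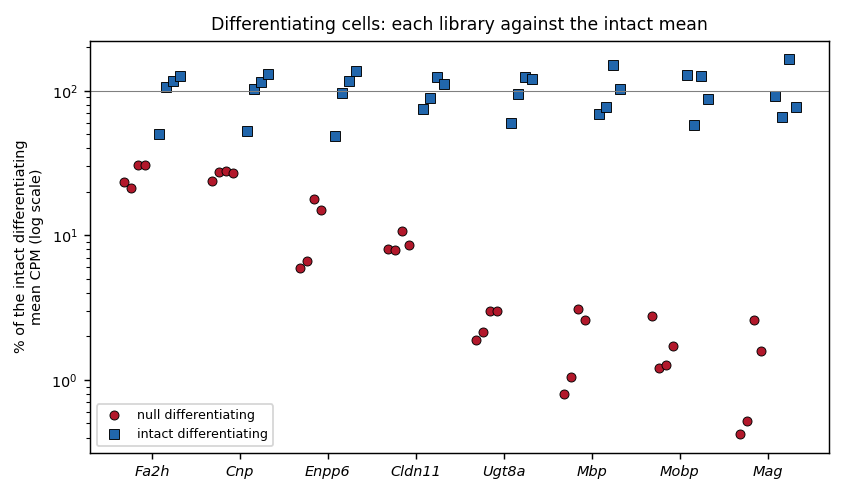
CPM of each null (red circles) and intact (blue squares) differentiating library as a percentage of the intact mean of the gene, on a log axis, with 4 libraries a genotype in replicate order; Mog is left out because 3 of its 4 null libraries had no counts. Null libraries stay at 21.2 to 30.9% for Fa2h and 23.7 to 27.7% for Cnp, and reach at most 3.08% for Ugt8a, Mbp, Mobp and Mag.

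Whether the 9 genes differ in the depth of their deficit was tested through their ratios within each library, which do not depend on library scaling. Over the 28 pairs of 8 genes (all but Mog), log2 ratios with 0.5 counts added were compared between the 4 null and 4 intact differentiating libraries by an exact two-sided permutation test. The smallest p the design allows is 0.0286, and 20 pairs reached it (adjusted p = 0.04 over the 28 pairs). These 20 share the same genes and the same split of the same libraries, so they are not separate results. With that smallest p, no pair could pass the adjustment alone, only together with many others. In each of these 20 the null and intact ratios did not overlap. The pairs fell into 3 tiers, seen after the values: Cnp with Fa2h, Cldn11 with Enpp6, and Ugt8a with Mbp, Mobp and Mag. Every pair across tiers passed and none of the 8 pairs within a tier did. With 2 counts added in place of 0.5, Mobp over Enpp6 no longer passed (-1.92, adjusted p = 0.114), Mobp having 2 to 4 counts in each null library.

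Cnp over Fa2h had nearly the same mean in both genotypes, at 4.68 ± 0.256 in null and 4.68 ± 0.0524 in intact differentiating libraries (mean log2 ratio of counts ± SD, n = 4 each; exact permutation p = 1). Ugt8a over Fa2h was -0.82 ± 0.155 in null and 2.62 ± 0.183 in intact libraries, a difference of -3.45, so the galactosyltransferase had fewer counts than the hydroxylase in each null library and more in each intact one. Cldn11 over Enpp6 was -1.01 ± 0.644 in null and -0.73 ± 0.402 in intact libraries (exact permutation p = 0.457). Mbp over Cldn11 was 0.71 ± 0.809 in null and 3.12 ± 0.208 in intact libraries. Within the deepest tier, Mbp over Mag was 4.73 ± 0.315 in null and 4.07 ± 0.375 in intact libraries (exact permutation p = 0.0571, adjusted p = 0.0762). A p that misses the threshold does not show that a ratio is the same.

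In proliferating cells, too, most of the myelin genes were lower in null than in intact libraries. Of the 9 genes, 7 were called lower in the null libraries and none higher, with 5 lower in every library. Among all genes, 19.7% were called lower, 19% higher and 19.7% were lower without overlap. Without intact proliferating replicate 1, 5 were called lower and 1, Mobp, higher, and without both libraries that stood apart 6 lower and Mobp higher. That library had 194 CPM of Mbp, while the other intact proliferating libraries had 11.5, 13.5 and 3.37 CPM. Null libraries had 0.698, 0.493, 0.416 and 0.935 CPM, so the Mbp difference stood with the library (-6.37 ± 1.22, edgeR adjusted p = 8.2e-04) and without it (-3.81, adjusted p = 5.0e-04).

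The clearest case was Ugt8a, at 0.279, 0.247, 0.291 and 0.397 CPM in null and 48.0, 16.7, 18.2 and 12.6 CPM in intact proliferating libraries. The genotypes were separated by a wide gap, with a fold change of -6.22 ± 0.53 (edgeR adjusted p = 8.7e-07) that was -5.63 without replicate 1. Cldn11 had 0.244, 0, 0.166 and 0.170 CPM in null and 23.5, 3.35, 3.87 and 1.75 CPM in intact proliferating libraries (-5.61 ± 0.91, edgeR adjusted p = 2.2e-04). Its 17 null counts are 2.02% of the intact level (95% counting interval 1.17 to 3.26%). Without replicate 1 the intact mean of Cldn11 was 2.99 CPM in place of 8.12 CPM, and the fold change -4.16 (edgeR adjusted p = 7.9e-06). Enpp6 had 18 counts in null against 724 in intact proliferating libraries (-5.65 ± 1.42, edgeR adjusted p = 0.0055), and Fa2h had 4 against 140 (-5.33 ± 1.25, edgeR adjusted p = 0.0030). Without replicate 1 the intact counts were 73 for Enpp6 and 30 for Fa2h, and both calls held with smaller fold changes of -2.75 and -3.53. All 4 null counts of Fa2h and 11 of the 18 of Enpp6 were in null replicate 4, without which Enpp6 was at -6.37 and Fa2h had no null count.

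The calls of Mag and Cnp were less firm. Mag had 3, 0, 0 and 1 counts in null and 291, 6, 14 and 2 counts in intact proliferating libraries (-6.47 ± 1.76, edgeR adjusted p = 0.0080), so the groups overlapped and the call was lost without replicate 1 (-3.07, adjusted p = 0.0984). Without null replicate 1, which held 3 of its 4 null counts, Mag was at -7.75. Cnp alone had a sizeable level in proliferating cells of both genotypes, at 64.6, 70.5, 77.7 and 104 CPM in null and 273, 112, 111 and 90.3 CPM in intact libraries. The groups overlapped (-0.89 ± 0.32, edgeR adjusted p = 0.039), and without replicate 1 the call was lost (-0.40, adjusted p = 0.197), as it was without any 1 of null replicates 1 to 3. Without both libraries that stood apart the fold change was the same and Cnp was called (-0.40, adjusted p = 0.032). Mog had 1 count in null and 0 in intact proliferating libraries, too few for a comparison.

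Mobp did not go with the others. It had 12, 9, 18 and 11 counts in null and 14, 0, 2 and 0 counts in intact proliferating libraries, or 0.419, 0.555, 0.749 and 0.312 CPM against 0.678, 0, 0.0921 and 0 CPM. All null libraries were above the 3 intact libraries other than replicate 1, and replicate 1 lay among the null ones. With it, the fold change was 1.35 ± 0.77 (edgeR adjusted p = 0.173), and without it 3.79 (adjusted p = 0.0011). These are few counts: 50 in the null group against 16 in the intact group, or 2 without replicate 1.

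**Figure D3:**
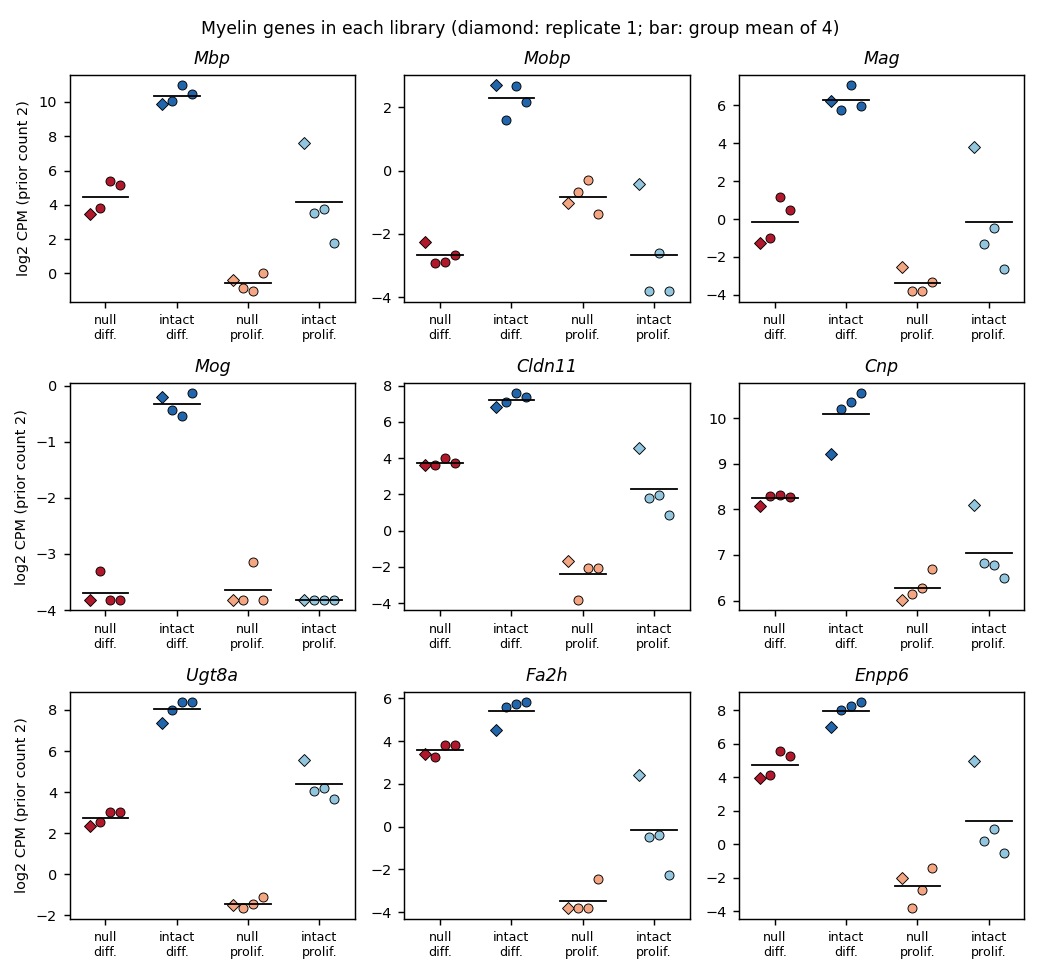
Log2 CPM with a prior count of 2 for each of the 9 myelin genes (panels) in the 4 groups (diff., differentiating; prolif., proliferating), where points are libraries, diamonds are replicate 1 and bars are means of 4. In differentiating cells all null points lie below all intact points, the 4 null proliferating libraries of Mobp lie above 3 of the 4 intact ones, and the diamond of intact proliferating cells is the highest of its group in every panel but that of Mog.

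In intact cells, differentiation raised all 8 genes other than Mog, each without overlap between conditions. Mog was called higher as well, but it was tested only through the intact differentiating libraries and is not counted. Among all genes, 36.7% were called higher, 35.3% lower, and 31.1% were higher without overlap. Enpp6 rose most of those with counts in both groups (4.92 ± 0.91, edgeR adjusted p = 2.0e-04), followed by Fa2h (4.72 ± 0.68), Mobp (4.68 ± 0.71), Mbp (4.61 ± 0.97), Mag (4.44 ± 0.95), Cldn11 (4.23 ± 0.58), Ugt8a (3.51 ± 0.36) and Cnp (2.96 ± 0.34). The SE of neighbours in this order overlap. Mog, with 90 counts in intact differentiating and 0 in intact proliferating cells, was at least 20.6-fold higher, with the intact proliferating group set to a floor of 3 counts in all. Without intact proliferating replicate 1 the rises were larger, from 3.45 for Cnp to 7.85 for Mag. In between were Ugt8a (4.10), Cldn11 (5.67), Fa2h (6.52), Mobp (7.12), Mbp (7.16) and Enpp6 (7.81). The order thus depended on that library, and without it Mag came ahead of Enpp6.

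In null cells, differentiation raised 7 genes, lowered Mobp and left Mog without a call. Among all genes, 34.6% were called higher and 34.4% lower. Fa2h had the largest rise, to 1742 counts in null differentiating against 4 in null proliferating libraries (8.14 ± 1.07, edgeR adjusted p = 6.3e-06). Enpp6 (7.43 ± 1.34), Cldn11 (6.34 ± 0.88), Mbp (5.25 ± 1.20), Ugt8a (4.42 ± 0.55) and Cnp (1.93 ± 0.33) followed. These genes thus rose upon differentiation without KAT7 and ended below the intact level. Mag rose by 4.70 ± 2.01 (edgeR adjusted p = 0.043), a call lost without any 1 of the 4 null proliferating libraries or without null differentiating replicate 3 or 4. Mobp fell by 2.49 ± 0.80 on the log2 scale (edgeR adjusted p = 0.010), with 4, 2, 3 and 3 counts in null differentiating against 12, 9, 18 and 11 counts in null proliferating libraries.

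The difference between these responses, null minus intact, was called for Mobp (-7.17 ± 1.06, edgeR adjusted p = 3.2e-04) with the lower response in null cells. Without intact proliferating replicate 1 it was -9.61. Among all genes, 9.93% were called lower and 12.7% higher. Mog also passed the threshold (-7.68, edgeR adjusted p = 0.033), but its high intact differentiating level was a condition of its being tested, and it has 1 count in each null group. Its call was lost without null proliferating replicate 3 and with either replicate block (adjusted p = 0.0765 with the number as a block and 0.177 with genotype and number). For the other 7 genes no difference between the responses was called, from -1.03 ± 0.45 for Cnp (edgeR adjusted p = 0.111) to 3.42 ± 1.57 for Fa2h (adjusted p = 0.114; DESeq2 adjusted p = 0.0436). Cnp passed without intact proliferating replicate 1 (-1.52, adjusted p = 0.0041), without intact differentiating replicate 1 (-1.25, adjusted p = 0.035) and without both (-1.74, adjusted p = 3.7e-05). The SE of the other genes, 0.73 to 3.10, leave room for sizeable differences.

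**Figure D4:**
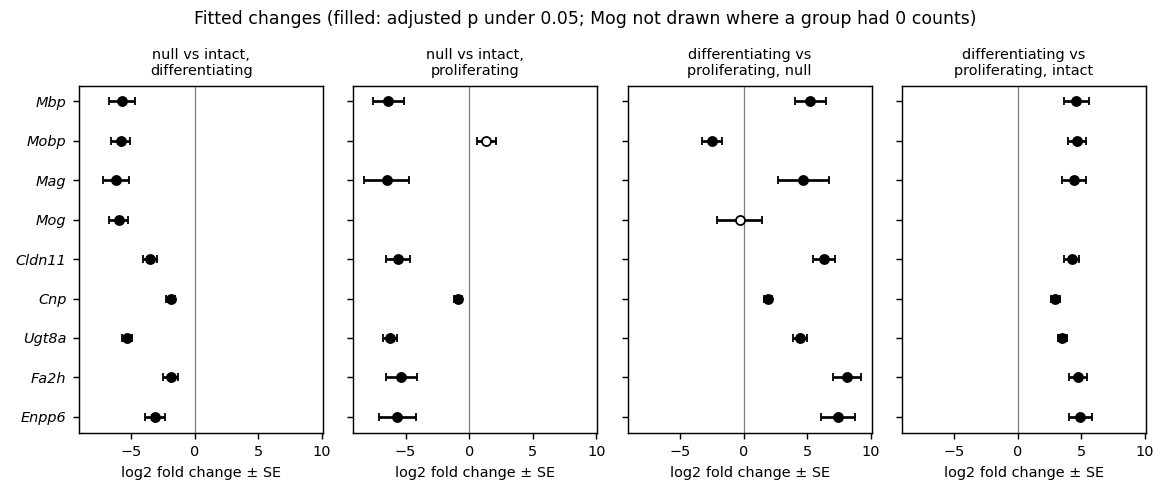
Log2 fold changes ± SE from edgeR for the 9 myelin genes in null against intact cells (left panels) and in differentiating against proliferating cells (right panels), where filled points have an adjusted p under 0.05 and Mog is not drawn where a group had no counts. In differentiating cells all points lie left of 0, from -6.22 for Mag to -1.91 for Fa2h; in proliferating cells Mobp lies on the other side at 1.35, and in null cells it is the only gene called lower upon differentiation, at -2.49.

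The order of the genes by level also differed. Per kilobase of gene model, Cnp was the most abundant in every group, at 113 ± 7.83 CPM per kb in null and 427 ± 144 CPM per kb in intact differentiating cells (mean ± SD, n = 4 each). In null differentiating cells Enpp6 (9.79 ± 5.11), Cldn11 (7.17 ± 1.04), Fa2h (4.79 ± 0.904), Mbp (3.81 ± 2.28), Ugt8a (1.89 ± 0.436), Mag (0.434 ± 0.345) and Mobp (0.0198 ± 0.00817) came next. In intact differentiating cells the next was Mbp (202 ± 73.6), ahead of Enpp6 (86.4 ± 32.9), Cldn11 (81.3 ± 18.0), Ugt8a (75.3 ± 22.4), Mag (34.0 ± 15.1), Fa2h (18.0 ± 6.15) and Mobp (1.14 ± 0.382). Many neighbours in these orders overlap: in null cells Enpp6 with Cldn11, Fa2h with Mbp and Mbp with Ugt8a, and in intact cells Cnp with Mbp and each neighbour pair in the run from Enpp6 to Fa2h.

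As shares of the per-kilobase sum of the 9 genes, Cnp made up 80.5 ± 4.95% in null and 45.7 ± 5.31% in intact differentiating cells. Mbp made up 2.60 ± 1.34% in null and 22.0 ± 4.17% in intact differentiating cells, and the ranges of neither gene overlapped between genotypes. The sum itself ran from 120.4 to 157 CPM per kb in null and from 553 to 1168 CPM per kb in intact differentiating libraries. In proliferating cells Cnp was 98.5 ± 0.431% of the sum in null and 76.9 ± 12.7% in intact libraries. Ugt8a held a near-constant share of the intact sum, at 8.15 ± 0.124% in differentiating and 8.86 ± 0.920% in proliferating cells, and was at 1.33 ± 0.176% and 0.282 ± 0.0240% in null differentiating and null proliferating cells.

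Regulators and other genes of the lineage were counted in 4 lists, beside which the background shares above apply. Of 11 transcription factors of oligodendrocytes and myelin, 7 were called lower and none higher in null differentiating cells (median -1.26), and 6 lower and 1 higher in null proliferating cells (median -1.01). Myrf, which encodes the master regulator of myelin genes, was at 20.3, 18.4, 36.4 and 36.7 CPM in null and 171, 296, 379 and 372 CPM in intact differentiating libraries. All null libraries were below all intact ones, with replicates 3 and 4 again the higher pair of the null group (-3.44 ± 0.63, edgeR adjusted p = 4.3e-04). In proliferating cells Myrf was lower too (-3.09 ± 0.72, edgeR adjusted p = 0.0035), at -1.56 without intact replicate 1. Zfp488, an oligodendrocyte corepressor gene, fell in differentiating (-4.19 ± 0.50, edgeR adjusted p = 1.1e-05) and proliferating null cells (-5.75 ± 0.76, adjusted p = 3.6e-05). Its proliferating value was -4.92 without intact replicate 1 and -6.42 without null replicate 4. Tcf7l2, a factor of the step before myelination, was lower in null differentiating cells (-0.87 ± 0.15, edgeR adjusted p = 2.5e-04), at 36.0 CPM on average against 65.6 CPM.

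Olig1 and Olig2, factors of the whole lineage from progenitors on, were not called in either condition. Olig1 had 1100, 1165, 924 and 886 CPM in null and 555, 1049, 966 and 1171 CPM in intact differentiating libraries, groups that overlap (0.12 ± 0.18, edgeR adjusted p = 0.600). Olig2 was likewise without a call (0.08 ± 0.20, edgeR adjusted p = 0.755). Leaving out intact differentiating replicate 1, the lowest for both, gave -0.06 and -0.12. In proliferating cells Olig1 was at -0.44 ± 0.18 (edgeR adjusted p = 0.067) and Olig2 at -0.33 ± 0.20 (adjusted p = 0.212), also without a call. Every null library of Olig1 was nonetheless below every intact one (994 to 1347 against 1451 to 1719 CPM), as in 19.7% of all genes tested. For Olig2, null libraries had 711 to 863 CPM and overlapped only intact replicate 1, at 804 CPM. The remaining intact libraries had 1065, 1070 and 1048 CPM.

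Of 12 genes of committed and newly formed oligodendrocytes, 10 were called lower and none higher in null differentiating cells (median -1.48), and 6 lower and 3 higher in null proliferating cells (median -0.97). Bmp4, a growth factor gene that newly formed oligodendrocytes express, was all but absent from null differentiating cells at 0.0697, 0.0306, 0.0426 and 0.145 CPM, against 26.9, 52.7, 79.0 and 71.2 CPM in intact ones (-9.59 ± 1.32, edgeR adjusted p = 9.1e-05). Neu4, a sialidase gene, fell by 5.93 ± 0.77 on the log2 scale (edgeR adjusted p = 2.1e-05). The 10 genes called lower include Bmp4 and Neu4, which would not have passed the filter on low counts without the 4 intact differentiating libraries. As with Mog, a high level there was a condition of their being tested, so their calls add nothing to that count. Gpr17, the receptor gene of committed precursors, fell by 2.16 ± 0.70 in differentiating null cells (edgeR adjusted p = 0.020) and fell by 5.17 ± 0.86 in proliferating null cells. Its call in differentiating cells was lost without null replicate 3 or 4 (adjusted p = 0.0543 and 0.0581), and its proliferating value was -3.82 without intact replicate 1 and -6.05 without null replicate 4. Rras2, a small GTPase gene, fell in differentiating null cells (-1.73 ± 0.19, edgeR adjusted p = 4.7e-06) and was also called lower in proliferating ones (edgeR adjusted p = 2.7e-05).

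Of 23 other mature oligodendrocyte and myelin genes, 14 were called lower and 4 higher in null differentiating cells (median -1.54), while in null proliferating cells 5 were lower and 6 higher (median -0.29). Tmem88b fell by 4.55 ± 0.60 (edgeR adjusted p = 2.6e-05), the connexin gene Gjc3 by 3.67 ± 0.34, the tetraspanin gene Tspan2 by 3.29 ± 0.40 and Opalin, a membrane protein of oligodendrocytes, by 2.82 ± 0.34 in null differentiating cells. In null proliferating cells Tspan2 (-3.18 ± 0.41) and Gjc3 (-2.49 ± 0.32) fell as well. Septin4, whose filaments scaffold myelin, went the other way there, at 11.5, 18.2, 18.6 and 29.98 CPM in null and 1.11, 1.79, 1.75 and 2.07 CPM in intact proliferating libraries (3.54 ± 0.28, edgeR adjusted p = 4.0e-07). The carbonic anhydrase gene Car2 was higher in null cells of both conditions, by 1.93 ± 0.28 in differentiating (32.6 against 8.54 CPM, edgeR adjusted p = 5.7e-05) and 1.43 ± 0.26 in proliferating cells (adjusted p = 6.1e-04). The other genes of the list called higher in null differentiating cells, named after their values were seen, were Cryab, Aspa and Gjb1. In differentiating cells Septin4 had 1.02 ± 0.0837 CPM in null and 3.15 ± 0.643 CPM in intact libraries (SD, n = 4 each). Like Mobp, Septin4 was thus higher in proliferating and lower in differentiating null cells, but for Mobp the first was not called over all 4 intact libraries.

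The wider list of lipid genes had no common direction, unlike Ugt8a and Fa2h. Of 15 enzymes and transfer proteins of sphingolipids and galactolipids, 5 were called lower and 3 higher in null differentiating cells (median -0.13), and 3 lower and 5 higher in null proliferating cells (median 0.26). Those that fell in null differentiating cells included Gal3st1, which sulphates galactosylceramide to sulphatide (14.1 against 70.3 CPM, -2.32 ± 0.54, edgeR adjusted p = 0.0025). Elovl7, a fatty acid elongase gene, fell by 2.44 ± 0.52 and Gltp, a glycolipid transfer protein gene, by 1.13 ± 0.15. Kdsr, an enzyme at the start of ceramide synthesis in all cells, was higher (0.65 ± 0.09, edgeR adjusted p = 6.0e-05), as it was in null proliferating cells (0.68 ± 0.10). In null proliferating cells Gal3st1 fell by 3.11 ± 0.73 on the log2 scale. Its value was -1.72 without intact replicate 1, where the intact mean was 1.59 CPM in place of 4.13 CPM against 0.439 CPM in null cells, and -3.87 without null replicate 4. Without both libraries that stood apart, the counts of lower and higher members in differentiating cells were 8 and 0, 11 and 0, 14 and 5, and 7 and 3 for the lists in the order given, and in proliferating cells 7 and 1, 6 and 4, 5 and 7, and 3 and 8.

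**Figure D5:**
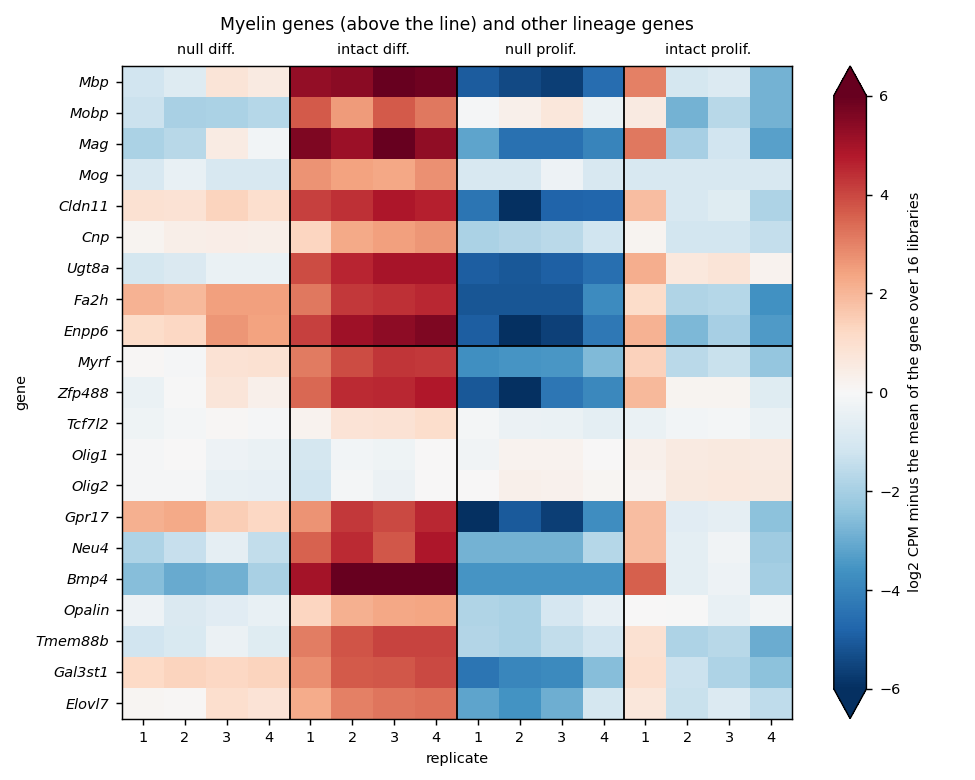
Log2 CPM (prior count 2) of the 9 myelin genes, above the line, and 12 other genes of the lineage, each centred on its mean over the 16 libraries (columns, by group and replicate); colours end at 6 in either direction. The columns of intact differentiating cells are high throughout the myelin block, the first column of intact proliferating cells is higher than the other 3 in every myelin row but Mog, and the rows of Olig1 and Olig2 stay pale. The 12 other genes are a selection of those named in the text. Septin4, called higher in null proliferating cells, and Car2 and Kdsr, called higher in null cells of both conditions, are not drawn.

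Across the 16 libraries, the genes most like the mean profile of the 9 were found by the root mean square difference of centred log2 CPM over 13612 genes. Myrf was the nearest at 0.322, ahead of Nfe2l3 (0.406), Phactr3 (0.416), Tubb4a (0.435) and Zfp804a (0.528). All 5 were nearer to that profile than any of the 9 genes themselves, of which Cldn11 was the nearest at 1.002 and Mobp the farthest at 2.20. The 5 were picked for their nearness and the 9 were not. That comparison therefore does not say which genes follow the myelin pattern better. The distance is a description over libraries that share their groups, and a gene with small changes lies far from the profile whatever its direction.

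Markers of other cells were summed in each library and counted by gene. The 5 markers of oligodendrocyte progenitors came to 1757 to 2249 CPM in null and 1549 to 3071 CPM in intact differentiating libraries. In proliferating libraries they came to 1764 to 2251 CPM in null and 2746 to 3072 CPM in intact ones. Much of each sum was Olig1 and Olig2, at means of 1019 and 588 CPM in null differentiating cells. Sox10 and Olig2 are also in the list of transcription factors, so the counts of the 2 lists are not separate. Of the 5 markers, 2 were called lower in null differentiating cells (median -0.09), against 22% of all genes tested. In null proliferating cells 3 were called lower (median -2.09), against 19.7% of all genes tested. In differentiating cells the mean of Sox10 was 62.7 CPM in the null group, against 451 CPM in the intact group (-2.85 ± 0.47, edgeR adjusted p = 1.6e-04). In proliferating cells Sox10 averaged 2.43 CPM in null and 46.9 CPM in intact libraries (-4.26 ± 0.55, edgeR adjusted p = 3.0e-05; -3.46 without intact replicate 1). Pdgfra, the growth factor receptor gene of these progenitors, was at -0.79 ± 0.31 in differentiating (edgeR adjusted p = 0.046) and -2.09 ± 0.32 in proliferating cells (adjusted p = 1.4e-04). The first of these calls was lost without any 1 of 6 libraries. Cspg4, the gene of the NG2 proteoglycan, was called lower in null proliferating cells (-2.16 ± 0.21, edgeR adjusted p = 2.1e-06) and was without a call in differentiating ones (-0.09 ± 0.20).

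Neural stem and progenitor markers, which check the labelled cell type, came to 6417 to 6828 CPM in null and 6234 to 6933 CPM in intact proliferating libraries. In differentiating libraries they came to 3728 to 4866 CPM in null and 2537 to 3313 CPM in intact ones, without overlap. There, 5 of 7 were called higher in null cells, against 24.3% of all genes tested. Astrocyte markers were at 3071 to 4848 CPM in null and 1164 to 1774 CPM in intact differentiating libraries, and neuronal markers at 637 to 737 CPM against 566 to 3294 CPM. In proliferating libraries astrocyte markers were at 1345 to 1959 CPM in null and 902 to 1356 CPM in intact ones, and neuronal markers at 23.3 to 27.4 CPM against 47.4 to 96.6 CPM. Schwann cells also make myelin, and their 5 markers came to 19.6 to 23.7 CPM in null and 8.66 to 15.9 CPM in intact differentiating libraries, and to 97.8 to 101.5 CPM in null and 35.7 to 45.2 CPM in intact proliferating ones. Mural and fibroblast markers went with the myelin genes in differentiating libraries, at 15.0 to 22.3 CPM in null and 39.2 to 80.1 CPM in intact ones. Of these 4 markers, 2 were called lower (median -2.23), against 22% of all genes tested. In proliferating libraries they were at 4.82 to 5.999 CPM in null and 2.43 to 6.83 CPM in intact ones. Microglial markers stayed at or under 0.401 CPM and endothelial markers, of which 1 of 4 had no count in each group, at or under 1.90 CPM in every library. The part of these shifts in the myelin results was not tested.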

How the data were processed

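Polyadenylated RNA of 16 mouse neurosphere libraries was sequenced as 75-base paired-end reads from TruSeq libraries, per the labels' protocols. Deposited were the raw counts of reads for each gene, as the files' whole numbers with unlike totals also show. Per the submitters' processing notes, bcl2fastq, featureCounts and mm10 were used. The aligner, tool versions, gene annotation and use of strand: not given in the sources used here. A combined table held identical counts in 16 of 16 columns and was not used.

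Genes were tested in R 4.3.3 with edgeR 4.0.16: filterByExpr (minimum count 10, 15177 genes kept), scaling by trimmed mean of M values, and a quasi-likelihood fit of all 16 libraries, 1 mean for each group, no covariate. The SE is the unshrunk log2 estimate divided by the root of the F statistic, and understates the error of groups with few counts. DESeq2 1.42.0 was an alternative. On simulated data the fit recovered all 10-fold and most 2-fold changes. Those changes were planted only in well-counted genes, with the same spread for every gene and no library standing apart. The simulation therefore does not speak for genes with few counts or for groups with a library that stood apart. No spike-in was used, so each change is relative to the rest of the library.

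Libraries came from 4 foetuses per genotype in each condition. Which libraries share a foetus is not given, and same-numbered libraries did not all deviate together (r from -0.231 to 0.126), so there was no block. Entrez identifiers were matched to symbols and GRCm38 positions with the RefSeq table (25275 of 27179). The 9 genes, the lists and the comparisons were chosen with earlier results of these data known. Named from each list were up to 4 called genes with the lowest adjusted p per genotype contrast, of which some are not reported here, with Olig1, Olig2, Pdgfra, Cspg4, and Myrf, Gpr17 and Gal3st1 also where they were not among those 4. The 3 tiers were seen after the values.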

Additional observations from a re-analysis of the deposited data

Results flagged for a closer look

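In groups of 4 libraries, a library was singled out where its gap to the nearest other library as a share of the group's whole range passed Dixon's 95% critical value. Among 124 groups tested chance gives about 1 in 20, and most of those found were the same library. Intact proliferating replicate 1 was the highest by this measure for Mbp (0.947), Mobp (0.864), Mag (0.96), Cnp (0.879), Ugt8a (0.841), Cldn11 (0.903), Enpp6 (0.962) and Fa2h (0.893). It was the highest also for Myrf (0.918), Zfp488 (0.842), Gpr17 (0.851), Gal3st1 (0.88), Sox10 (0.851), Bmp4 (0.953) and Tmem88b (0.894), and the lowest for Olig1 (0.843) and Olig2 (0.918). Null proliferating replicate 4 was the highest for Myrf (0.878), Car2 (0.905), Elovl7 (0.879) and Cspg4 (0.831), and for Fa2h and Neu4, where it alone held counts (1). Mog had a value of 1 in null differentiating replicate 2 and in null proliferating replicate 3, each with the only count of its group. Cnp was lowest in null differentiating replicate 1 (0.834).

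Mog passed edgeR's interaction test (-7.68), but its high intact differentiating level was a condition of its being tested. Its call was also lost with either replicate block. The response to differentiation differed between null and intact cells by that test for Mobp (-7.17). Among the other genes named it differed for Septin4 (-5.18 ± 0.39, adjusted p = 2.3e-06), Tmem88b (-3.64 ± 0.83, adjusted p = 0.0059), Opalin (-1.68 ± 0.51, adjusted p = 0.028), Gltp (-1.03 ± 0.21, adjusted p = 0.0034) and Tcf7l2 (-0.76 ± 0.21, adjusted p = 0.018), each with a lower response in null cells. It was higher in null cells for Pdgfra (1.3 ± 0.44, adjusted p = 0.044) and Cspg4 (2.08 ± 0.28, adjusted p = 2.1e-04).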

How the results depend on the processing

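In differentiating cells the 9 genes kept their lower direction under all alternatives run. All 9 (Mog included) were called in each except DESeq2 (8, Fa2h lost at adjusted p = 0.0504) and the stricter filter (8 tested). Wherever the filter on low counts was used, a high intact differentiating level was a condition of Mog being tested. Its call there adds nothing to these counts. In proliferating cells 7 were called under other scalings and filters and with DESeq2. With only the groups compared in the fit, fewer genes pass the filter. There, 4 of 5 genes tested were called, and Cnp lost its call (edgeR adjusted p = 0.0595). The interaction gave 1 gene under the stricter filter, where 8 were tested, and 1 with a replicate block by number or by genotype and number, where Mog was lost, and 1 to 3 leaving out 1 library (1 without null proliferating replicate 3). Without either or both of the libraries that stood apart it gave 3, with Cnp added, and 3 with DESeq2, with Fa2h added. These counts of 3 include Mog.

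A block by genotype and number assumes that same-numbered libraries of 1 genotype came from 1 foetus, which the labels do not state. Replicate numbers do not clearly show pairing: 2 of 4 intact libraries correlated best with their own number across conditions, and 0 of 4 null ones. For intact replicates 1 to 4, r across conditions was 0.126, 0.123, -0.231 and 0.117. Both libraries that stood apart were intact replicate 1, and whether they share a foetus is not given. With a replicate block by number the proliferating comparison gave 6 genes (Cnp at adjusted p = 0.0698), and the differentiating one 9 (Mog included).

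Signs turned round for values without a call. In the interaction Mbp was at -1.18 with a replicate block by genotype and number and -2.06 without both libraries apart, and at -1.91 (without intact proliferating replicate 1) to 1.04 leaving out 1 library. Mag was at -0.26 and -1.3 with the replicate block by number and by genotype and number, -3.17 without both libraries, and -3.14 (without intact proliferating replicate 1) to 1.53 leaving out 1 library. Enpp6 was at -0.62 without both and -0.39 (the same library) to 3.24 leaving out 1. Leaving out 1 library, Mog ran from 0 to 2.08 in null against intact proliferating cells and from -1.66 to 1.38 for differentiation in null cells. Olig1 ran from -0.06 to 0.25 and Olig2 from -0.12 to 0.24 in differentiating cells, with the same lowest values without both libraries, and Olig2 was at -0.01 under library size scaling. Cspg4 ran from -0.27 to 0.06 in differentiating cells leaving out 1 library. With 2 counts added, a setting chosen after seeing the data, the ratio of Mobp to Ugt8a was 0.16 and that of Cnp to Fa2h 0, both without a call, and Mobp to Enpp6 lost its call. The cause of these turns was not tested.

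Library size scaling alone moved the lower share of all called genes to 63.3% from 50.9% in proliferating and to 60.6% from 47.5% in differentiating cells. Of the myelin genes, 7 and 9 (Mog included in the 9) were lower as before. Mog, and Mag, Fa2h, Enpp6, Cldn11, Ugt8a and Mobp in null proliferating cells, rest on 50 counts or fewer in the 4 libraries of the group, which sets their precision.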
